A study of Mus musculus with 24 samples.

Results

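The unfolded protein response and the integrated stress response were followed through 35 genes in cultured primary mouse keratinocytes, the main cells of the epidermis. The genes were taken by symbol from a list drawn up with earlier results of these data known, with no threshold on a measured value, and all 35 were measured among the 19937 genes tested. They comprised 14 chaperones and folding enzymes of the endoplasmic reticulum (ER), 7 genes of ER-associated degradation, 4 sensor genes counting Xbp1, and 10 genes of the branch that runs through the transcription factors ATF4 and CHOP.

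Cells sense unfolded protein in the ER through the membrane proteins IRE1 (gene Ern1), PERK (Eif2ak3) and ATF6. IRE1 splices the mRNA of the transcription factor XBP1, and cleaved ATF6 and spliced XBP1 turn on chaperones and the degradation machinery. PERK phosphorylates the translation factor eIF2, which slows protein synthesis but lets ATF4 be translated, and ATF4 then turns on CHOP (Ddit3), Trib3, Chac1 and others. Other eIF2 kinases answer amino acid shortage, viral RNA and heme loss, so the ATF4 genes can also move without ER stress, and for that reason the whole is called the integrated stress response. Keratinocytes use the ER machinery during differentiation and the secretion of lipid and protein. The arrays measured total mRNA, so neither the splicing of Xbp1 nor the translation of Atf4 was read.

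All cells were primary keratinocytes of C57/BL6 mice, either wild-type or Ppar-beta null (homozygous for a disrupted Ppard, the gene of a fatty acid-activated nuclear receptor). They were grown for 2 days and then infected with a retrovirus carrying the Hras oncogene, or mock transduced. The Hras groups are labelled with 48 h of Hras. The DMSO vehicle or 1 uM GW0742, a synthetic ligand that activates this receptor, was given for 24 h. Genotype, virus and ligand were crossed into 8 groups of 3 arrays, called here wild-type or null, mock or Hras, and DMSO or GW0742. The sources used here do not say whether mock cells received an empty virus, so Hras and infection cannot be told apart. They also do not say that the 3 arrays of a group came from separate cultures or mice, so the p-values measure the spread between arrays, which may be technical. Values are log2 intensities after RMA, an array normalization that summarises the probes of each gene. Changes are differences of log2 group means ± standard error, with p adjusted over all 19937 genes, and a gene was called at an adjusted p under 0.05.

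Array medians ran from 7.46 to 7.53 over the 24 arrays. In the wild-type Hras DMSO group replicate 3 was high, and in the null Hras DMSO group replicate 1 was low, for many of the 35 genes. The median SD within a group, taken over the 35 genes, was 0.103 in the null Hras DMSO group and 0.0880 in the wild-type Hras DMSO group, against 0.0374 to 0.0686 in the other groups. Taken over all genes, it was highest in the null Hras GW0742 group, 0.122 against 0.0647 to 0.0798 in the other groups. The basal keratins that mark keratinocytes lay between 14.0 and 14.3 (Krt5) and between 13.9 and 14.1 (Krt14) over the 24 arrays. The mean level over 10 keratinocyte markers was 12.8 in both mock DMSO groups, 11.5 in wild-type and 11.6 in null Hras DMSO cells. Krt1 and Krt10, keratins of differentiating cells, fell with Hras, with changes of -5.80 and -4.85 in wild-type and -5.13 and -4.85 in null cells, while the median change of the 10 markers was -0.30 in each genotype. Markers of other cell types moved with the groups. The mean level over 9 fibroblast markers was 9.11 in wild-type mock, 8.40 in null mock, 7.82 in wild-type Hras and 8.09 in null Hras cells under DMSO. The same mean over 10 melanocyte markers was 9.65, 9.39, 8.73 and 8.72 in that order. Over 10 leukocyte and Langerhans cell markers it was 6.63, 6.85, 6.31 and 6.40. Log2 RMA values have no zero, and the lowest defining marker, Lum of fibroblasts, lay between 4.46 and 5.15 on single arrays. The part of these cell types in the results was not tested. In bulk RNA, fewer cells of a type and less RNA per cell cannot be told apart. Ppard itself was lower in null cells by 0.57 ± 0.06 under mock and DMSO, but the sources used here do not name the deleted exons, so this does not check the labels.

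Known elements of both arms were searched in the promoters, and the stretches shown are those of genes the results turn on. Sequences are from RefSeq (GRCm38.p6), which held 31 of the 35 genes in windows from 250 bases before to 50 after the start; Hyou1, Manf, Derl1 and Atf6 had no entry. The ER stress element, ERSE, which binds ATF6 together with NF-Y, was searched as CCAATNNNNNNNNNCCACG on both strands. It was found in 9 of 18 chaperone and ER-degradation genes, in 0 of 3 sensor genes, in 0 of 10 ATF4-CHOP genes and in 0.137% of all 27025 genes with a window. The capitals mark it in the next 5 sequences, where the motif of Creld2 and Derl3 reads on the opposite strand.

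Hspa5 (chr2:34772010-34772058, + strand): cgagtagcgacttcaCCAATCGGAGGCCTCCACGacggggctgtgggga
Pdia6 (chr12:17266476-17266524, + strand): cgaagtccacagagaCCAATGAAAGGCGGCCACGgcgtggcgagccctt
Creld2 (chr15:88819505-88819553, + strand): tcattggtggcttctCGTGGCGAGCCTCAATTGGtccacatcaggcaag
Dnajc3 (chr14:118937812-118937860, + strand): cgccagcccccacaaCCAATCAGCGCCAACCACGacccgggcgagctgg
Derl3 (chr10:75893227-75893275, + strand): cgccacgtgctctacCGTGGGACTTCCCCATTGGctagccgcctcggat

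The composite element of C/EBP and ATF factors, to which ATF4 binds, was searched as TGATGNAAN on both strands. It was found in 4 of 10 ATF4-CHOP genes (Atf3, Chac1, Nupr1 and Trib3), in 1 of 18 chaperone and ER-degradation genes (Herpud1) and in 4.50% of all genes. The shorter ER stress element ERSE-II, ATTGGNCCACG, stood in 2 of those 18 (Dnajb11 and Herpud1) and in 0.0444% of all genes, and no gene among the 31 with a window held both this and ERSE. Herpud1 carries elements of both kinds and is shown for that reason. Capitals mark the composite element, on the opposite strand as printed, and in Herpud1 also ERSE-II.

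Herpud1 (chr8:94386301-94386402, + strand): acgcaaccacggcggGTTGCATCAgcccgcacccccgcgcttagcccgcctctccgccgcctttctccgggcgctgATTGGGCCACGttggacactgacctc
Atf3 (chr1:191183421-191183459, - strand): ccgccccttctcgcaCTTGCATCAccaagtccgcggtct
Chac1 (chr2:119351033-119351071, + strand): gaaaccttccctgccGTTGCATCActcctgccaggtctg
Nupr1 (chr7:126625558-126625596, - strand): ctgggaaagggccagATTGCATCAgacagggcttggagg

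The cyclic AMP response element TGACGTCA was found in 1 of 10 ATF4-CHOP genes (Ppp1r15a) and in 2.03% of all genes. The XBP1 core TGACGTGG was found in 0 of 31 members and in 0.714% of all genes. These matches describe letters in a window and were not tied to binding in these cells.

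In wild-type keratinocytes under DMSO, Hras raised most of the chaperones modestly and a few stress genes strongly. Of the 35 genes, 28 were higher and 2 lower in Hras cells, with a median change of 0.31, where 18.4% of all genes were called higher and 19.0% lower. All 14 chaperones rose, with a median of 0.33. Hspa5, the main Hsp70 chaperone of the ER (BiP), measured 12.69, 12.70 and 12.69 in the mock arrays and 13.09, 13.12 and 13.36 in the Hras arrays. All Hras arrays lay above all mock arrays, and the rise was 0.50 ± 0.06 (1.41-fold, adjusted p = 3.47e-07). Manf, a secreted ER stress protein, rose by 0.51 ± 0.07, Hsp90b1, the ER form of Hsp90, by 0.50 ± 0.07, and Pdia6, a disulfide isomerase, by 0.42 ± 0.05. Canx, the membrane-bound lectin chaperone, rose least, by 0.17 ± 0.05 (adjusted p = 0.0159).

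Of the 7 ER-degradation genes 5 rose in wild-type Hras cells. Derl3, a channel component that moves proteins out of the ER, measured 8.08, 8.03 and 7.97 in the mock arrays and 8.55, 8.80 and 9.41 in the Hras arrays. The arrays did not overlap and replicate 3 was the highest, with a rise of 0.89 ± 0.17 (adjusted p = 0.000162). Herpud1, a membrane protein of the degradation complex, rose by 0.46 ± 0.07. Syvn1, the ubiquitin ligase HRD1, rose by 0.28 ± 0.06 and its partner Sel1l by 0.18 ± 0.07, while Edem1, a lectin that hands over glycoproteins, differed by -0.08 ± 0.04 (adjusted p = 0.173) and Derl2 by 0.10 ± 0.05 (adjusted p = 0.167).

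Of the sensor genes Eif2ak3 and Ern1 rose and Atf6 had no call, while total Xbp1, counted with them, fell. Eif2ak3 (PERK) measured 9.20, 9.23 and 9.27 in mock and 9.99, 9.98 and 10.02 in Hras arrays, a rise of 0.77 ± 0.07 (1.70-fold, adjusted p = 8.41e-09). Ern1 rose by 0.44 ± 0.06. Total Xbp1 measured 12.06, 12.05 and 11.99 in mock and 11.75, 11.82 and 11.95 in Hras arrays. Its Hras arrays were all below the mock arrays, and it fell by 0.19 on the log2 scale (SE 0.05, adjusted p = 0.00660). Atf6 differed by 0.07 ± 0.07 (adjusted p = 0.500).

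In the ATF4-CHOP branch 7 of 10 genes rose and 1 fell in wild-type Hras cells, with sizes that ranged widely. Nupr1, a small stress-induced chromatin protein, measured 10.97, 10.91 and 10.83 in mock and 12.58, 12.47 and 12.44 in Hras arrays. That was the largest change among the 35 genes in this comparison, 1.59 ± 0.06 (3.02-fold, adjusted p = 5.5e-15). Ero1a, the oxidase that supplies disulfide bonds, rose by 1.36 ± 0.06 from 10.98, 11.08 and 10.96 to 12.35, 12.32 and 12.43. Sesn2, a stress-induced inhibitor of mTORC1 signalling, rose by 0.71 ± 0.08 and Trib3, a pseudokinase that restrains AKT and ATF4, by 0.57 ± 0.08. The transcription factors themselves moved little, with Ddit3 (CHOP) up by 0.31 ± 0.09 (adjusted p = 0.00781) and Atf4 up by 0.19 ± 0.05 (adjusted p = 0.00511). Cebpb, a C/EBP partner of CHOP, fell by 0.31 on the log2 scale. Atf3, a repressor induced by ATF4, differed by -0.12 ± 0.08 (adjusted p = 0.249) and Chac1, an enzyme that degrades glutathione, by 0.15 ± 0.09 (adjusted p = 0.226).

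Leaving out 1 array at a time ended 8 of these 30 calls. Without replicate 3 of the wild-type Hras DMSO group, Dnajc3, Sel1l, Dnajb9, Derl1, Ppp1r15a and Sdf2l1 had adjusted p between 0.0547 and 0.381, the highest for Sel1l. Without replicate 1 of that group Canx (0.0910), Xbp1 (0.0556) and Dnajb9 (0.0543) were not called. Without replicate 1, 2 or 3 of the wild-type mock DMSO group, calls of Dnajc3, Sel1l, Canx, Dnajb9, Derl1 and Ppp1r15a were lost, with adjusted p up to 0.165.

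**Figure D1:**
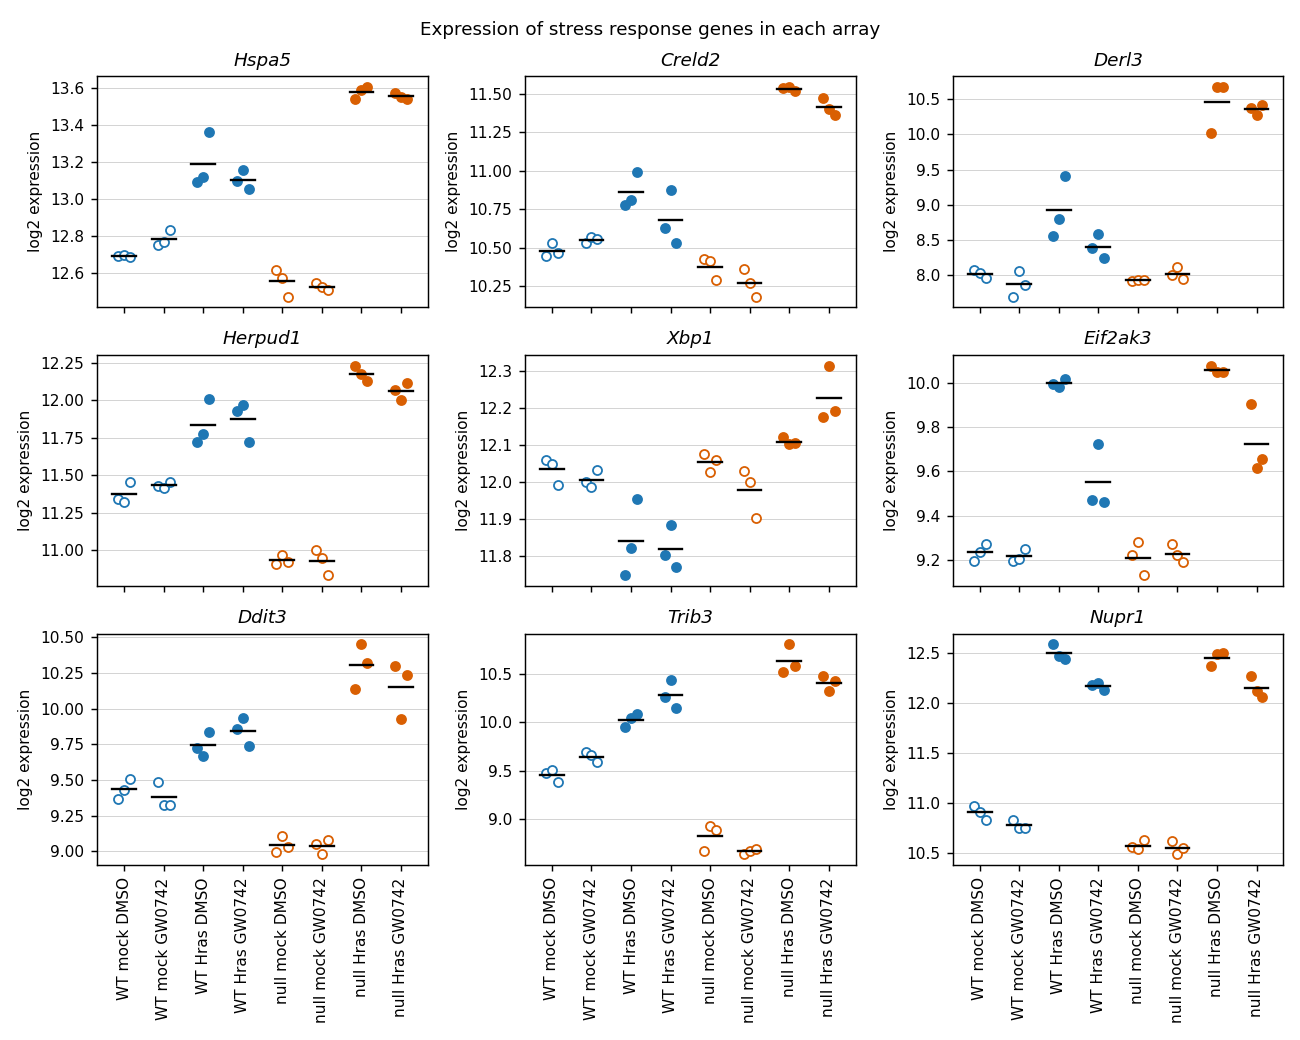
Log2 level (vertical axis, RMA) of 9 genes on each of the 24 arrays, by group along the horizontal axis; open points are mock and filled points Hras, blue wild-type and orange null, and bars are group means of 3 arrays. Derl3 stood at 8.55 to 9.41 in wild-type Hras DMSO arrays and at 10.02 to 10.67 in null ones, while Eif2ak3 stood at 9.98 to 10.02 and 10.05 to 10.08 in the same groups.

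In null keratinocytes under DMSO, Hras raised nearly the whole set, and the ATF4-CHOP genes most. Of the 35 genes 33 were higher and 0 lower, with a median of 0.85, where 20.2% of all genes were called higher and 20.5% lower. The 2 genes without a call were Xbp1 (0.06 ± 0.05, adjusted p = 0.485) and Cebpb (0.10 ± 0.06, adjusted p = 0.231). All 14 chaperones rose, with a median of 0.89. Hspa5 measured 12.62, 12.57 and 12.47 in mock and 13.54, 13.59 and 13.61 in Hras arrays, a rise of 1.02 ± 0.06 (2.03-fold, adjusted p = 3.99e-12). Creld2, an ER-resident stress-induced protein, rose by 1.16 ± 0.07 and Pdia6 by 1.10 ± 0.05. The lectin chaperones Canx (0.16 ± 0.05) and Calr (0.43 ± 0.04) and their partner Pdia3 (0.25 ± 0.07), which serve glycoproteins, showed the smallest rises of the 14.

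All 7 ER-degradation genes rose in null Hras cells. Derl3 measured 7.93, 7.94 and 7.94 in mock and 10.02, 10.67 and 10.66 in Hras arrays. Its rise of 2.52 ± 0.17 (5.73-fold, adjusted p = 5.37e-11) was the largest of the 35. Herpud1 went from 10.91, 10.97 and 10.92 to 12.23, 12.18 and 12.13, by 1.25 ± 0.07, and Sel1l rose by 0.82 ± 0.07.

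Of the ATF4-CHOP genes 9 of 10 rose in null cells, with a median of 1.16 against 0.32 in wild-type cells. Trib3 measured 8.67, 8.93 and 8.88 in mock and 10.51, 10.80 and 10.58 in Hras arrays, a rise of 1.80 ± 0.08 (3.49-fold, adjusted p = 7.56e-14). Ddit3 measured 9.00, 9.11 and 9.03 in mock and 10.14, 10.45 and 10.32 in Hras arrays, a rise of 1.26 ± 0.09. Mock and Hras arrays of both genes were far apart, and replicate 1 was the lowest of the Hras arrays in each. Ppp1r15a (GADD34), which brings a phosphatase to eIF2, rose by 1.26 ± 0.10, Chac1 by 1.07 ± 0.09 and Atf3 by 0.81 ± 0.08. Atf4 mRNA rose by 0.67 ± 0.05. Among the sensors Eif2ak3 rose by 0.85 ± 0.07, Ern1 by 0.81 ± 0.06 and Atf6 by 0.56 ± 0.07. Of the 33 calls, 3 were lost when 1 array was left out. Canx was lost without null Hras DMSO replicate 3 (adjusted p = 0.136) or null mock DMSO replicate 3 (0.0723), Pdia3 without null Hras DMSO replicate 3 (0.0574), and Syvn1 without null Hras DMSO replicate 1 (0.0738) or null mock DMSO replicate 2 (0.0679).

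Under GW0742 the same comparison of Hras with mock cells called 20 genes higher and 3 lower in wild-type cells (median 0.20; 17.7% of all genes higher, 17.5% lower). The 3 lower genes were Xbp1, Cebpb and Edem1. In null cells 34 were higher and 0 lower (median 0.82; 21.0% of all genes higher, 20.7% lower), and Syvn1 was the one without a call (-0.04 ± 0.06, adjusted p = 0.680). In wild-type cells 8 of 14 chaperones and 7 of 10 ATF4-CHOP genes rose, the latter with a median of 0.59. In null cells all 14 chaperones and all 10 ATF4-CHOP genes rose. Ero1a showed the largest rise among the wild-type changes under GW0742, 1.63 ± 0.06, and rose by 2.02 ± 0.06 in null cells. Xbp1, which fell by 0.19 in wild-type cells, rose by 0.25 ± 0.05 in null cells. Leaving out 1 array ended the wild-type calls of Pdia4, Dnajb11, Sdf2l1, Derl3, Edem1 and Cebpb, each without 1 to 6 of the arrays of the wild-type mock and Hras GW0742 groups, with adjusted p between 0.0507 and 0.133. It ended the null calls of Canx and Pdia3 without replicate 2 of null Hras GW0742 or replicates 2 and 3 of null mock GW0742, with adjusted p between 0.0598 and 0.0745.

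The difference between the genotypes in the Hras change was tested directly. Under DMSO the Hras change was called higher in null than in wild-type cells for 29 of 35 genes and lower for 0, with a median difference of 0.47, where 8.35% of all genes were called in the higher and 8.41% in the lower direction. The largest differences were in Derl3 (1.62 ± 0.24, adjusted p = 5.09e-05) and Trib3 (1.23 ± 0.11, adjusted p = 2.71e-07). Ddit3 differed by 0.95 ± 0.12, Atf3 by 0.94 ± 0.11 and Chac1 by 0.92 ± 0.13. Among chaperones Creld2 and Sdf2l1, an ER cochaperone, each differed by 0.78, with 11 of 14 called and a median of 0.54. The 6 genes without a call were Calr, Canx, Pdia3, Syvn1, Eif2ak3 and Sesn2. For PERK itself the difference was 0.08 ± 0.10 (adjusted p = 0.678), and for Sesn2 0.33 ± 0.11 (adjusted p = 0.0537). Under GW0742, in a test added after the values were seen, the Hras change was again called higher in null cells for 29 genes and lower for 0 (median 0.49; 11.5% of all genes higher, 12.6% lower). Without regard to the test, the Hras change was higher in null cells for 32 of 35 genes under DMSO and 34 of 35 under GW0742. The share of all genes with that sign is not given here, and the members were chosen with earlier results known.

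Of the 29 calls under DMSO, 3 depended on single arrays. Xbp1 (0.25 ± 0.08) was lost without replicate 1 or 2 of wild-type mock, 2 of null mock, 1 or 2 of wild-type Hras or 2 of null Hras DMSO. Nupr1 (0.29 ± 0.08) was lost without replicate 1 of wild-type mock, 2 of null mock, 2 or 3 of wild-type Hras, or 2 or 3 of null Hras DMSO. Ero1a (0.27 ± 0.09) was lost without replicate 1 or 2 of wild-type mock, 3 of null mock, 1 or 2 of wild-type Hras, or 2 or 3 of null Hras DMSO, and the adjusted p of these 3 genes then lay between 0.0511 and 0.0995. Under GW0742, Derl2 was lost without replicate 3 of wild-type mock, 3 of null mock or 1 of null Hras, and Ppp1r15a without replicate 2 of wild-type mock GW0742 (0.0523 to 0.0580). Pdia4 has a second, dimmer probe set on which the genotype difference in the Hras change was not called (adjusted p = 0.566 under DMSO and 0.0987 under GW0742). The fibroblast markers moved with genotype in the same test, with 8 of 9 higher in the null direction, as did 4 of 10 melanocyte markers. Under GW0742 these counts were 7 of 9 and 4 of 10. Of 10 leukocyte and Langerhans cell markers 2 were lower and 0 higher in the null direction, under DMSO and under GW0742 alike. The part of all these cells in the result was not tested.

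**Figure D2:**
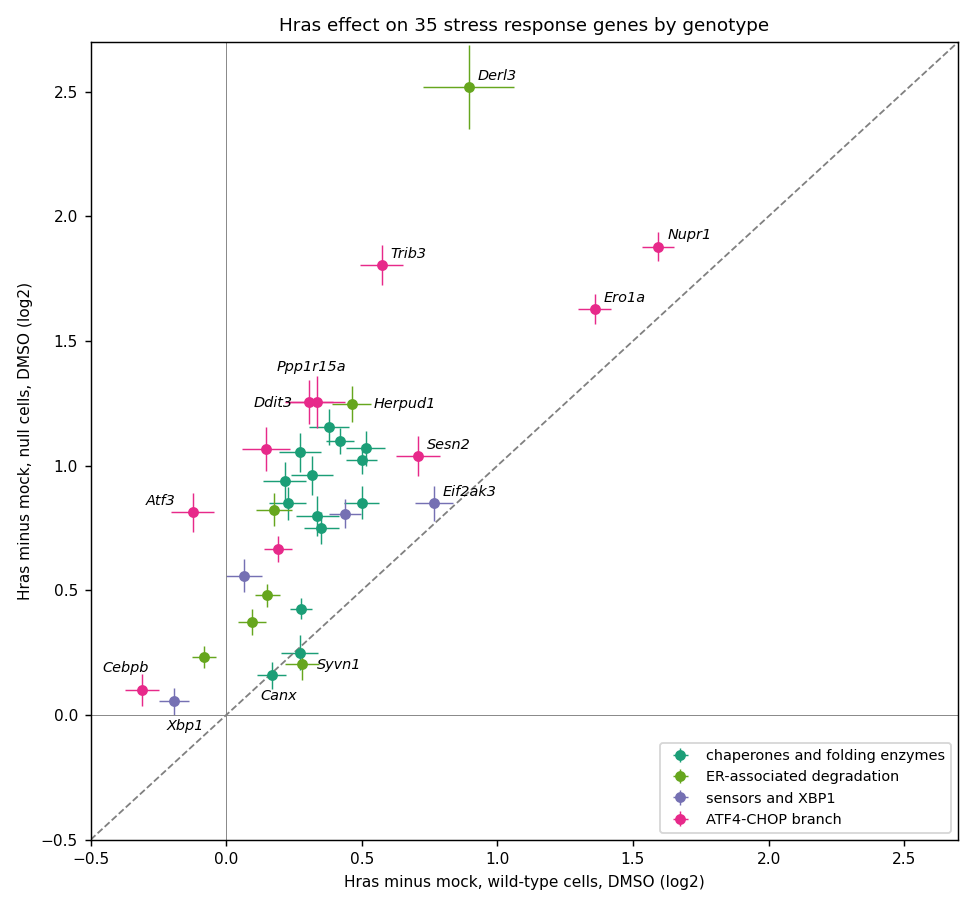
Hras minus mock log2 change of each of the 35 genes in wild-type (horizontal) and null cells (vertical) under DMSO, with bars of 1 standard error, the dashed line at equal change, and colours for the 4 role groups. Points lie above the line for 32 of 35 genes, farthest for Derl3 and Trib3, and close to it for Eif2ak3.

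The genotypes were then compared at each end of the Hras change. In mock cells under DMSO, 9 of 35 genes were lower and 1 higher in null cells (median -0.07; 5.53% of all genes lower, 4.89% higher). Of the 10 ATF4-CHOP genes 6 were lower. Chac1 measured 10.51, 10.55 and 10.60 in wild-type and 9.79, 9.86 and 10.01 in null mock arrays, a difference of -0.67 ± 0.09 (adjusted p = 2.01e-05). Trib3 was at 9.47, 9.50 and 9.38 in wild-type mock arrays, above every null mock array, and differed by -0.62 ± 0.08 (adjusted p = 1.5e-05). Ddit3 (-0.39 ± 0.09), Nupr1 (-0.33 ± 0.06), Atf4 (-0.29 ± 0.05) and Cebpb (-0.22 ± 0.06) were the other 4. Ppp1r15a went the other way, 0.38 ± 0.10 higher in null cells (adjusted p = 0.0199). Among chaperone and ER-degradation genes 2 of 21 were lower, Herpud1 (-0.44 ± 0.07) and Hyou1, a large ER chaperone (-0.28 ± 0.08), with a median of -0.01. Hspa5 differed by -0.14 ± 0.06 (adjusted p = 0.165). Ern1 was the one sensor with a call (-0.30 ± 0.06). Calls of Hyou1, Ppp1r15a and Cebpb were lost without replicate 1 or 3 of wild-type mock DMSO or, for at least 1 of the 3 genes, any null mock DMSO array (adjusted p 0.0519 to 0.104).

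With GW0742 the mock genotype contrast held 15 lower and 1 higher gene (median -0.11; 10.9% of all genes lower, 11.1% higher). Of the ATF4-CHOP genes 9 of 10 were lower, among them Trib3 (-0.98 ± 0.08, adjusted p = 1.96e-08), Chac1 (-0.77 ± 0.09), Atf4 (-0.45 ± 0.05), Atf3 (-0.45 ± 0.08) and Sesn2 (-0.40 ± 0.08). Ppp1r15a was again the higher gene (0.31 ± 0.10). Of the 21 chaperone and ER-degradation genes 5 were lower, Hspa5 (-0.26 ± 0.06), Pdia6 (-0.23 ± 0.05), Hyou1 (-0.31 ± 0.08), Creld2 (-0.28 ± 0.07) and Herpud1 (-0.50 ± 0.07), and Ern1 was lower as well (-0.27 ± 0.06). The call of Creld2 was lost without replicate 3 of null mock GW0742 (adjusted p = 0.0520), and that of Ppp1r15a without any null mock GW0742 array or without replicate 1 or 3 of wild-type mock GW0742 (0.0623 to 0.127). Fibroblast markers were lower in null mock cells, 8 of 9 under DMSO and 7 of 9 under GW0742, as were 5 and 1 of 10 melanocyte markers. Leukocyte and Langerhans cell markers went the other way, with 2 of 10 higher under DMSO and 3 of 10 under GW0742. The part of these cell types in these differences was not tested.

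Among Hras cells under DMSO 27 of 35 genes were higher in null cells and 0 lower (median 0.34; 10.1% of all genes higher, 9.32% lower). Of the chaperone and ER-degradation genes 18 of 21 were higher, with a median of 0.39. Derl3 led with 1.53 ± 0.17, then Sdf2l1 with 0.80 ± 0.08 and Creld2 with 0.67 ± 0.07. Of the ATF4-CHOP genes 7 of 10 were higher. Ppp1r15a measured 9.65, 9.79 and 10.03 in wild-type and 10.81, 11.32 and 11.26 in null Hras arrays, a difference of 1.31 ± 0.10 (adjusted p = 1.83e-08). Atf3 measured 10.40, 10.37 and 10.41 against 10.88, 11.31 and 11.22, a difference of 0.74 ± 0.08. The wild-type and null arrays of both genes were apart. Nupr1 (-0.05 ± 0.06, adjusted p = 0.670), Sesn2 (0.12 ± 0.08, adjusted p = 0.346) and Chac1 (0.25 ± 0.09, adjusted p = 0.0523) had no call, nor did Ern1 and Eif2ak3 (0.06 each). Calls of Cebpb and Atf4 were lost without replicate 1 or 2 of wild-type Hras DMSO or 2 or 3 of null Hras DMSO (adjusted p 0.0658 to 0.180). Fitted on the arrays of this comparison alone, Calr, Derl2, Atf4 and Cebpb were not called.

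Under GW0742 22 genes were higher in null Hras cells and 0 lower (median 0.26; 9.91% of all genes higher, 11.2% lower). There 16 of 21 chaperone and ER-degradation genes were called (median 0.45) but 4 of 10 ATF4-CHOP genes (median 0.12), namely Ppp1r15a (0.80 ± 0.10), Ddit3 (0.31 ± 0.09), Atf3 (0.25 ± 0.08) and Cebpb (0.19 ± 0.06). The last 3 of these calls were each lost without replicate 3 of wild-type or replicate 3 of null Hras GW0742, and singly without replicate 1 or 2 of either group (adjusted p 0.0566 to 0.136). Fitted on the arrays of this comparison alone, those 3 genes were not called, nor were Derl1, Derl2 and Edem1. On the second probe set of Pdia4 the genotype difference in Hras cells had adjusted p of 0.687 under DMSO and 0.0515 under GW0742. Fibroblast markers were higher in null Hras cells, 6 of 9 under DMSO and 2 of 9 under GW0742, as were 0 and 5 of 10 melanocyte markers. Leukocyte and Langerhans cell markers were higher for 2 and 0 of 10. The part of these cell types in the result was not tested.

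Across the 8 groups the null Hras DMSO mean was the highest for 25 of the 35 genes and the null Hras GW0742 mean for 6. The wild-type Hras DMSO mean was the highest for 2 and the wild-type Hras GW0742 mean for 2. A null mock group had the lowest mean for 23 genes, 17 under GW0742 and 6 under DMSO. These orders are of means, and neighbours in them often lay within the spread of the arrays, as in Hspa5, where the null Hras arrays were at 13.54, 13.59 and 13.61 under DMSO and 13.57, 13.55 and 13.54 under GW0742. The same counts of highest and lowest means were not made over all genes.

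The ligand itself gave 9 calls in wild-type and 4 in null Hras cells, fewer than Hras gave among these genes. In mock cells GW0742 gave 0 calls among the 35 genes in either genotype. In wild-type mock cells 1.25% of all genes were called higher and 1.61% lower, and in null mock cells 0% in each direction. At the looser cut of an unadjusted p under 0.05, 6 wild-type and 2 null differences passed, and the called shares do not apply to that cut. In wild-type Hras cells 5 genes were higher and 4 lower (median -0.08; 4.46% of all genes higher, 1.65% lower). The 5 higher genes all belonged to the ATF4-CHOP branch. In that comparison 1 of 15 further ATF4-CHOP targets was higher (median -0.01). Of 14 amino acid genes that ATF4 drives 1 was higher (median 0.0002). In wild-type mock cells 2 of those 15 targets and 4 of those 14 genes were higher (medians 0.12 and 0.16).

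Chac1 measured 10.61, 10.69 and 10.80 with DMSO and 11.24, 11.15 and 11.13 with GW0742 in wild-type Hras cells, a rise of 0.47 ± 0.09 (adjusted p = 0.00123). Ero1a rose by 0.47 ± 0.06 (adjusted p = 1.74e-05), Sesn2 by 0.39 ± 0.08, Ppp1r15a by 0.37 ± 0.10 and Atf3 by 0.34 ± 0.08. Of the 4 that fell, Eif2ak3 measured 9.99, 9.98 and 10.02 with DMSO and 9.47, 9.72 and 9.46 with GW0742. It fell by 0.45 on the log2 scale (SE 0.07, adjusted p = 0.000165), with no overlap between arrays. Nupr1 fell by 0.33, Sdf2l1 by 0.27 and Pdia4 by 0.25. Calls of Sdf2l1 and Ppp1r15a were lost without replicate 1 of wild-type Hras DMSO or any of the 3 wild-type Hras GW0742 arrays, and that of Ppp1r15a also without replicate 2 and that of Sdf2l1 without replicate 3 of wild-type Hras DMSO (adjusted p 0.0537 to 0.253). The call of Pdia4 was lost without replicate 3 of wild-type Hras DMSO (0.123) or replicate 2 or 3 of wild-type Hras GW0742, and that of Atf3 without replicate 2 of wild-type Hras GW0742 (0.0652). Fitted on the arrays of this comparison alone, Pdia4, Sdf2l1 and Ppp1r15a were not called. Pdia4 and Sdf2l1 also lost their calls under other processing alternatives.

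In null Hras cells GW0742 raised Ero1a by 0.35 ± 0.06 (adjusted p = 0.00133) and lowered Nupr1 (-0.30 ± 0.06), Eif2ak3 (-0.33 ± 0.07) and Hyou1 (-0.27 ± 0.08), 1 higher and 3 lower (median -0.07; 3.51% of all genes higher, 1.51% lower). Of 10 melanocyte markers 6 were higher in the same comparison, with a median of 0.29 (Tyrp1 0.54), and 1 of 9 fibroblast markers was lower. In wild-type Hras cells GW0742 raised 1 melanocyte and 1 fibroblast marker, and the part of these cells in the ligand changes was not tested. Fitted on the 6 arrays of the 2 null Hras groups alone, 0 of the 4 genes were called. Hyou1 was lost without replicate 2 or 3 of either null Hras group (adjusted p 0.0682 to 0.285) and Eif2ak3 without replicate 2 of null Hras GW0742 (0.0624). Ero1a, Nupr1 and Eif2ak3 thus moved in the same direction with the ligand in wild-type and null Hras cells. The genotype difference in the ligand effect among Hras cells was called for 2 genes, Atf3 (-0.50 ± 0.11, adjusted p = 0.0204) and Trib3 (-0.47 ± 0.11, adjusted p = 0.0336) (0.517% of all genes higher, 1.21% lower). The ligand changes behind them were 0.34 in wild-type and -0.16 ± 0.08 (adjusted p = 0.302) in null cells for Atf3, and 0.25 ± 0.08 (adjusted p = 0.0722) and -0.22 ± 0.08 (adjusted p = 0.132) for Trib3. For Ero1a it was -0.12 ± 0.09 (adjusted p = 0.697) and for Eif2ak3 0.12 ± 0.10 (adjusted p = 0.776).

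Both calls depended on single arrays. Atf3 was lost without replicate 2 of any of the 4 Hras groups or replicate 3 of null Hras DMSO (adjusted p 0.0532 to 0.0673), and Trib3 without replicate 1 or 2 of wild-type Hras DMSO, 1 or 2 of wild-type Hras GW0742, 2 of null Hras DMSO, or 2 or 3 of null Hras GW0742 (0.0604 to 0.108). In mock cells the same test gave 0 calls, where 0.286% of all genes were called higher and 0.562% lower. At the looser cut of an unadjusted p under 0.05 there were 4 genes, and the called shares do not apply to that cut. The test of whether Hras altered the ligand effect in wild-type cells called Eif2ak3 alone (-0.43 ± 0.10, adjusted p = 0.0190; 2.05% of all genes higher, 0.421% lower). It was lost without replicate 1 of wild-type mock DMSO (0.0516), 3 of wild-type mock GW0742 (0.0546), or 1 (0.0543) or 3 (0.0729) of wild-type Hras GW0742.

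**Figure D3:**
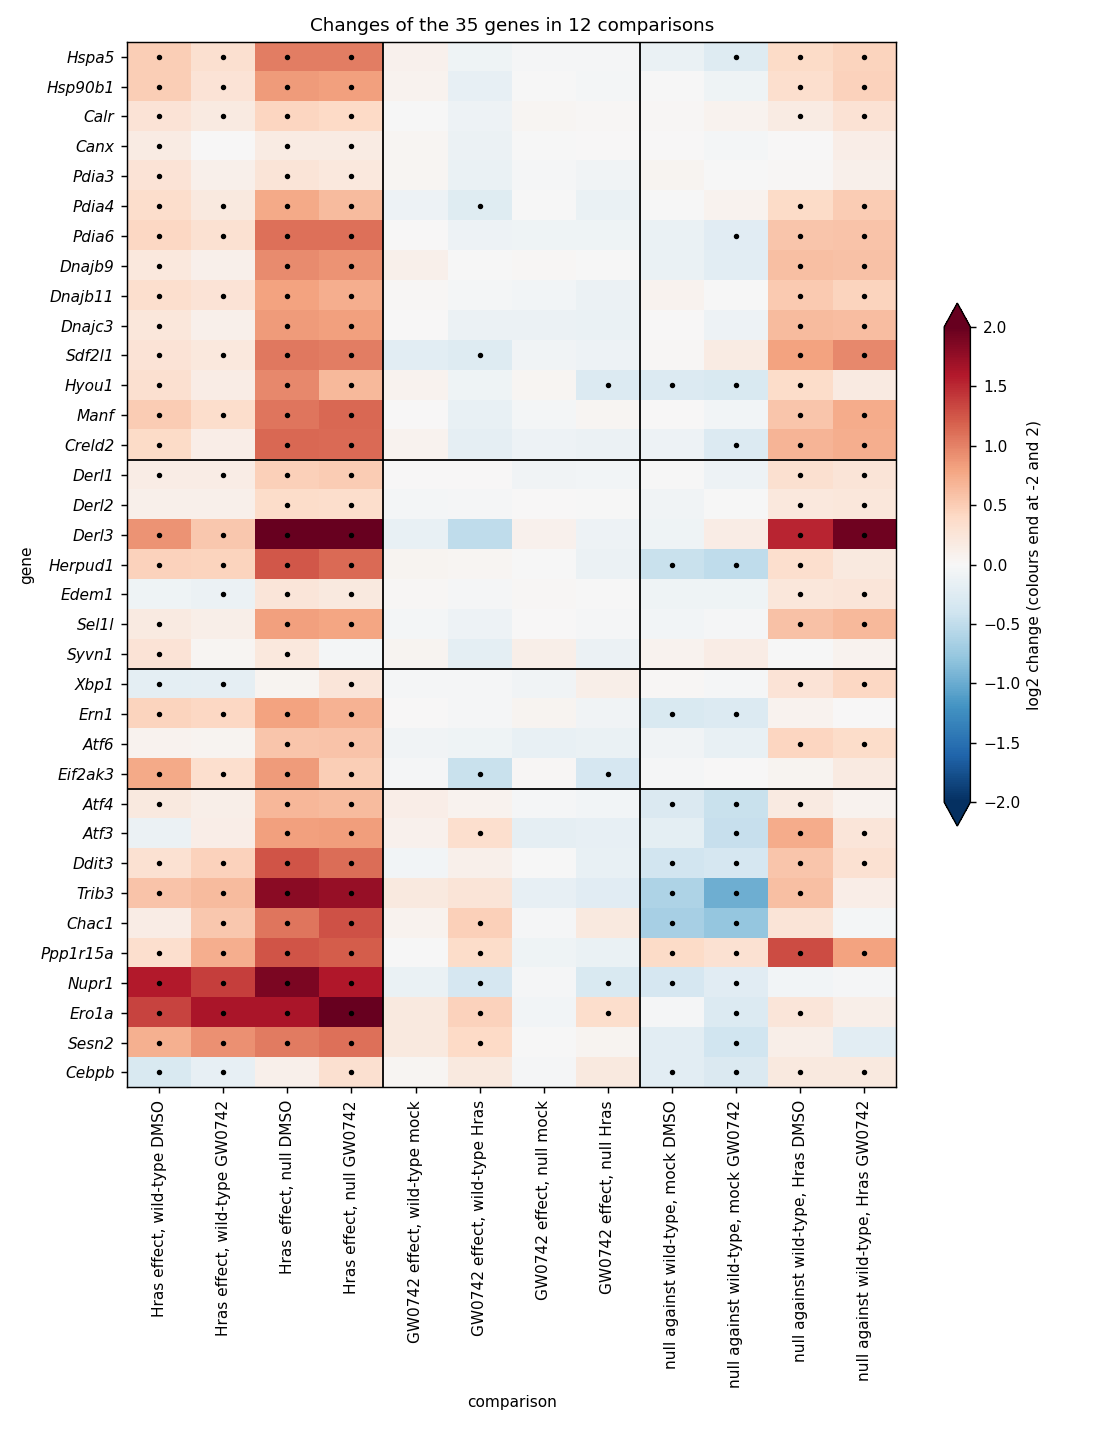
Log2 change of the 35 genes (rows, by role) in the 12 comparisons between pairs of groups (columns), with colours ending at -2 and 2 and dots where the adjusted p was under 0.05. The Hras columns of null cells carry 33 and 34 dots and the ligand columns of mock cells carry 0.

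To set the chaperone and ER-degradation genes and the ATF4-CHOP genes side by side, each gene was centred on its mean over the 24 arrays and the median over 21 and over 10 genes was taken on each array. In wild-type mock DMSO arrays the chaperone median was -0.22, -0.23 and -0.19 and the ATF4-CHOP median -0.26, -0.21 and -0.23. In null mock DMSO arrays the chaperone median was -0.27, -0.24 and -0.25 and the ATF4-CHOP median -0.68, -0.57 and -0.53. Null mock arrays lay below all wild-type mock arrays in both, narrowly for the chaperones and by more for the ATF4-CHOP genes. In wild-type Hras arrays GW0742 went with chaperone medians of -0.06, 0.02 and -0.05 against 0.09, 0.04 and 0.19 under DMSO. The ATF4-CHOP medians there were 0.38, 0.43 and 0.28 against 0.11, 0.07 and 0.20. With the ligand the chaperone medians were lower and the ATF4-CHOP medians higher in wild-type Hras cells, without overlap of arrays in either. In null Hras cells the arrays of both ligand groups overlapped in both branches. The comparisons share arrays, so these medians are not independent of each other, and no test was made on them.

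**Figure D4:**
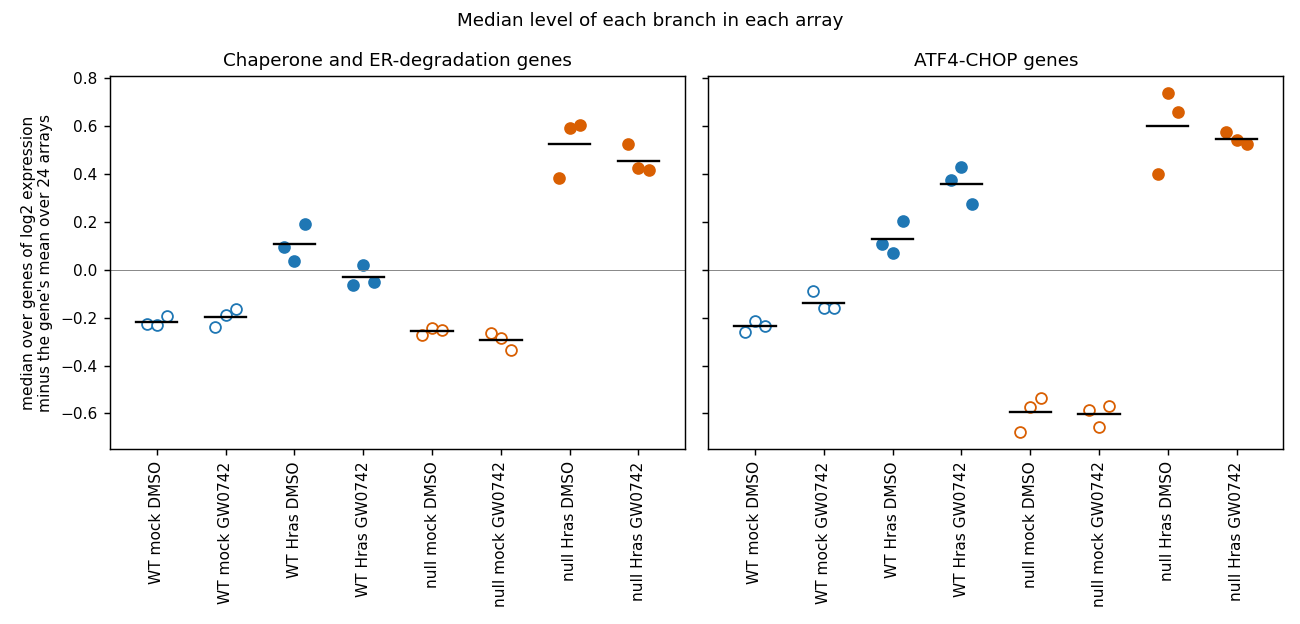
Median, over 21 chaperone and ER-degradation genes and over 10 ATF4-CHOP genes, of the log2 level minus each gene's mean over 24 arrays, for each array by group; open points are mock and filled points Hras, blue wild-type and orange null, with bars at the mean of 3 arrays. Null mock DMSO arrays lie at -0.68 to -0.53 for ATF4-CHOP and at -0.27 to -0.24 for chaperones, and in wild-type Hras cells the GW0742 arrays are above the DMSO arrays for ATF4-CHOP and below them for chaperones.

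As a description with no test, the median Hras change of the chaperone and ER-degradation genes was 0.38 for the 9 genes with ERSE and 0.27 for the 9 without it in wild-type cells, and 0.85 and 0.80 in null cells. With ERSE-II counted as well it was 0.38 for 11 genes and 0.22 for 7 in wild-type cells, and 0.85 and 0.75 in null cells.

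Other genes of the pathways, from lists made for this purpose, were read with the same fit, and their counts stand against the shares of all genes, 18.4% higher and 19.0% lower with Hras in wild-type DMSO cells and 20.2% and 20.5% in null DMSO cells. Among 15 further ATF4-CHOP targets 14 rose with Hras in wild-type cells (median 0.51) and 15 in null cells (median 0.78). Stc2, a secreted glycoprotein induced by ER stress, rose by 1.28 in wild-type and by 2.62 in null cells, a tested difference of 1.34 (adjusted p = 5.23e-07). The proapoptotic Bcl2l11 (BIM) was the one called lower in the test of the genotype difference, by -1.06. In mock cells under DMSO, where 5.53% of all genes were lower and 4.89% higher in null cells, 6 of the 15 were lower and 1 higher, Stc2 by -0.85 (adjusted p = 1.92e-06). The 14 amino acid genes, which ATF4 drives to supply serine, asparagine and cysteine, gave 9 higher and 1 lower with Hras in wild-type cells and 14 higher in null cells (medians 0.29 and 1.04). Of these 11 were lower in null mock cells, most of all the glutamine transporter Slc1a5 (-1.78, adjusted p = 4.46e-11), then Mthfd2 (-0.75) and Cth (-0.67). Slc1a5 fell by 0.76 with Hras in wild-type cells and rose by 1.42 in null cells.

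The remaining lists held the neighbouring ER machinery, other regulators and the cytosolic chaperones. Of 18 other folding genes 8 rose and 2 fell in wild-type Hras cells, and 12 rose in null cells, with 7 called higher in the test of the genotype difference (8.35% of all genes). Ero1b, the second ER oxidase, rose by 0.31 and 0.89. Of 20 translocon, signal peptidase and glycosylation genes 10 rose and 1 fell in wild-type cells and 16 rose and 1 fell in null cells. Of 17 other degradation genes 2 rose and 4 fell in wild-type and 3 rose and 1 fell in null cells, shares near or below those of all genes, with Selenos higher in both (0.40 and 0.75). Of 14 other regulators 2 rose and 4 fell in wild-type and 3 rose and 5 fell in null cells. The shares of all genes were 18.4% higher and 19.0% lower in wild-type and 20.2% and 20.5% in null cells. Creb3l1, an ATF6-like factor, fell by 1.42 in wild-type and by 0.60 in null cells. Atf5, an ATF4-related factor, rose by 0.71 in null cells, with a genotype difference of 0.89. Of 11 cytosolic heat shock genes 4 rose and 4 fell in each genotype.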

How the data were processed

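RNA of 24 keratinocyte samples was read on Affymetrix Mouse Gene 1.0 ST arrays. The authors deposited log2 values made with RMA, per the submitters' processing notes; the sources used here name no software or version for it. Of 34760 probe sets, 21640 carried 1 gene symbol in the platform annotation, and for each of 19937 genes the probe set with the highest mean over all arrays was kept (954 genes had several; among the members only Pdia4). In R 4.3.3, limma 3.58.1 estimated 1 mean for each of the 8 groups (16 residual and 4.43 prior degrees of freedom), with Benjamini-Hochberg adjustment over all genes in each of 12 pair comparisons and 5 differences; the fifth difference was added after values were seen. The fit was tested on simulated data. Members and lists were chosen with earlier results of these data known. Every member may be named, and of each other list at most 3 genes a comparison, those called with the largest change. Motifs were searched with Python 3.11.15. Alternatives were other centring, probe sets, filters, variance models, arrays fitted and the replicate number as a block. Replicate numbers did not pair the arrays. The number of arrays limits the precision. Expression of the Hras gene itself was not analysed here.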

Additional observations from a re-analysis of the deposited data

Results flagged for a closer look

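The Hras change differed between genotypes. Under DMSO 29 genes differed, all in the direction of a higher Hras change in null than in wild-type cells. Among chaperones the difference was 0.52 for Hspa5, 0.35 for Hsp90b1, 0.40 for Pdia4, 0.68 for Pdia6, 0.72 for Dnajb9, 0.46 for Dnajb11, 0.62 for Dnajc3, 0.78 for Sdf2l1, 0.64 for Hyou1, 0.56 for Manf and 0.78 for Creld2. Among ER-degradation genes it was 0.33 for Derl1, 0.27 for Derl2, 1.62 for Derl3, 0.78 for Herpud1, 0.31 for Edem1 and 0.65 for Sel1l. Xbp1 differed by 0.25, Ern1 by 0.37 and Atf6 by 0.49. In the ATF4-CHOP branch it was 0.47 for Atf4, 0.94 for Atf3, 0.95 for Ddit3, 1.23 for Trib3, 0.92 for Chac1, 0.92 for Ppp1r15a, 0.29 for Nupr1, 0.27 for Ero1a and 0.41 for Cebpb.

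Under GW0742 29 genes differed in the same direction. Among chaperones the difference was 0.71 for Hspa5, 0.55 for Hsp90b1, 0.23 for Calr, 0.44 for Pdia4, 0.80 for Pdia6, 0.79 for Dnajb9, 0.45 for Dnajb11, 0.73 for Dnajc3, 0.80 for Sdf2l1, 0.49 for Hyou1, 0.79 for Manf and 1.01 for Creld2. Among ER-degradation genes it was 0.35 for Derl1, 0.24 for Derl2, 1.80 for Derl3, 0.69 for Herpud1, 0.32 for Edem1 and 0.67 for Sel1l. Xbp1 differed by 0.44, Ern1 by 0.28 and Atf6 by 0.52. In the ATF4-CHOP branch it was 0.51 for Atf4, 0.70 for Atf3, 0.65 for Ddit3, 1.11 for Trib3, 0.74 for Chac1, 0.49 for Ppp1r15a, 0.39 for Ero1a and 0.48 for Cebpb.

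The ligand effect in Hras cells differed between genotypes for 2 genes, Atf3 by -0.50 and Trib3 by -0.47. The ligand effect in wild-type cells differed between Hras and mock cells for 1 gene, Eif2ak3, by -0.43. No formal criterion for outlying values was applied, since each group holds 3 arrays.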

How the results depend on the processing

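Over all alternatives run, 224 counts of called members stayed within 1.5 times the count reported, 7 were higher and 15 lower beyond that, and no called result changed direction. Of the branch medians 230 moved by less than the spread between replicates and 10 by more. The 230 include settings that could not move them. Leaving out the dimmest 40% of genes changes neither median, and the other probe sets leave the ATF4-CHOP median as it was. With GW0742 in wild-type mock cells 1 member was called, against 0, when the dimmest 40% of genes were left out, with a variance trend and robust fit, and on the 6 arrays of that comparison alone. On their own arrays alone 0 members, against 4, were called for GW0742 in null Hras cells, and 0, against 2, for the genotype difference in that effect. For the ligand effect by Hras in wild-type cells 2 members, against 1, were called with the variance trend and on own arrays. For GW0742 in wild-type Hras cells 6 to 13 members, against 9, were called over the alternatives other than leaving out 1 array. The ATF4-CHOP median for Hras in null GW0742 cells was 1.20 with arrays centred and 1.12 with Ero1a among the chaperones, against 1.16. The chaperone median of null against wild-type mock DMSO cells was -0.0624 with the other probe set of Pdia4 and every other gene that has several, against -0.0119.

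Leaving out 1 array gave 24 to 30 calls for Hras in wild-type DMSO cells, 31 to 33 in null DMSO cells, 2 to 5 for GW0742 in null Hras cells, 0 to 5 for its genotype difference and 0 to 2 for the ligand effect by Hras. The chaperone median ranged from -0.0488 to -0.01 for null against wild-type mock DMSO cells and from -0.0383 to 0.0112 for GW0742 in null mock cells. The ATF4-CHOP median ranged from 0.24 to 0.37 for Hras in wild-type DMSO cells and from 1.16 to 1.21 in null GW0742 cells.

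Arrays with the same replicate number did not deviate together (correlations -0.287 to 0.253, median 0.015, over 84 pairs of arrays from different groups), so the numbers do not pair them. With the replicate block 28 members, against 27, were called for null against wild-type Hras DMSO cells and 30, against 29, for the genotype difference in the Hras change under DMSO; the block changed no other count.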
